A study of Mus musculus with 2 samples.

Results

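The enzymes and regulators of cholesterol and fatty acid synthesis were followed as RNA in individual cells from mouse pancreas of embryonic day 14.5, with or without Fgf9, a growth factor gene. The 30 genes were chosen by symbol, out of 32285 features in the count tables, and each symbol was found. They comprise 18 enzymes of cholesterol synthesis, 4 regulators (Srebf1, Srebf2, Insig1 and Stard4) and 8 enzymes of fatty acid synthesis and desaturation. The question was how these genes differed between the libraries in each cell class, with the cholesterol and fatty acid branches kept apart. Cholesterol synthesis genes were lower in the Null library in every compared class when summed, most in mesothelial-like cells. Endothelial-like cells, too few to be compared, had a slightly higher sum in the Null library, with overlapping intervals. The log2 ratio of the Null over the Control level of the sum, with its 95% counting interval, was -0.77 (-0.83 to -0.72) in mesothelial-like cells. It was -0.41 (-0.42 to -0.39) in acinar-like and -0.08 (-0.10 to -0.06) in ductal-like cells, where the interval overlapped those of mesenchymal-like and endocrine progenitor-like cells.

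Cholesterol is built from acetyl-CoA through mevalonate, farnesyl diphosphate, squalene and lanosterol. When sterols in the endoplasmic reticulum run low, the membrane-bound factor SREBP2, product of Srebf2, is carried to the Golgi apparatus, cut and released to the nucleus, where it raises transcription of most enzymes of the pathway. INSIG1 holds the complex in the endoplasmic reticulum when sterols are plentiful, and Srebf1 encodes the related factor best known for driving fatty acid synthesis. Fatty acid synthesis draws on the same acetyl-CoA, through ATP citrate lyase, acetyl-CoA carboxylase and fatty acid synthase. Dividing cells need both products for membranes, and secretory cells such as acinar cells hold large amounts of endoplasmic reticulum membrane.

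Each group is 1 pooled library. Control cells came from 8 pancreata of Fgf9 +/+ and +/- embryos, and Null cells from 3 pancreata of Fgf9 -/- embryos, both out of 3 litters. In the Null allele, LacZ interrupts the Fgf9 locus in all cells, and all mice shared a C57BL/6J background. The tissue was dissociated with TrypLE, and DAPI-negative cells passing a size gate were loaded on the 10x Genomics platform, which counts RNA molecules near their 3′ end as unique molecular identifiers (UMIs). With 1 library per group there is no replicate check of any difference, embryos cannot be told apart within a pool, and the intervals given are 95% intervals that cover counting error only.

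The deposited tables held 30209 barcodes and 339959625 UMIs for the Control library and 16708 barcodes and 271129120 UMIs for the Null library, of which 26970 and 8869 barcodes were kept after filters. Marker genes named 16798 Control and 8588 Null cells, with median depths of 14225 and 24779 UMIs, so that depth differed between the groups. Most of the unnamed barcodes were 9764 Control and 257 Null barcodes of low UMI counts. Fgf9 itself gave 2901 UMIs (9.28 CPM) in the Control library and 410 UMIs (1.71 CPM) in the Null library, where CPM is UMIs of a gene per 1000000 UMIs of the same cells. The sources used here do not say whether the counted end of the transcript lies outside the interrupted part, so residual Fgf9 UMIs check the label only in part. By sex-linked genes, 6664 Control cells were male and 6370 female, whereas 7390 Null cells were male and 1 female. A total of 180 barcodes occurred in both libraries, 73 of them among kept cells. The 7 classes with at least 200 cells in each library were compared, from 338 Control and 231 Null macrophage-like cells to 4409 Control and 1216 Null mesenchymal-like cells. Each class is named from its markers, so "mesothelial" below stands for mesothelial-like, and so on.

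The promoters of 23 of the 30 genes were found in the RefSeq table for build GRCm38.p6, as windows from 250 bases before to 50 bases after the start site. Sterol response elements bind SREBP, and NF-Y and SP1 are the factors that commonly act beside it. On either strand, the sterol response element TCACNCCAC occurred in 408 of 32851 promoter windows of that length (1.24%) and in 1 of the 23 genes, Hmgcs1. The shorter element CACCCCAC, which overlaps it, occurred in 2.87% of windows and in Hmgcs1 and Acat2. The NF-Y element CCAAT occurred in 37.4% of windows and in 14 of 15 cholesterol genes with a window, 2 of 5 fatty acid genes and 3 of 3 regulators. The SP1 element GGGCGG occurred in 35.7% of windows and likewise in 14 of 15 cholesterol genes, 2 of 5 fatty acid genes and 3 of 3 regulators. Several genes have more than 1 window and were counted if any held the letters, and a match describes letters, not binding. The 250 bases before the start site are shown for Hmgcs1, which holds the sterol response element, and for Msmo1, Mvd and Idi1, the 3 genes without it whose ratios in acinar and mesothelial cells were lowest on average among genes with a single window. Capitals mark TCACNCCAC, CACCCCAC, CCAAT and GGGCGG on either strand. The windows lie at chr13:119690101-119690350 (plus strand), chr8:64733579-64733828 (minus strand), chr8:122443423-122443672 (minus strand) and chr13:8885356-8885605 (plus strand), and each reads 5′ to 3′ on the strand of its gene.
Hmgcs1: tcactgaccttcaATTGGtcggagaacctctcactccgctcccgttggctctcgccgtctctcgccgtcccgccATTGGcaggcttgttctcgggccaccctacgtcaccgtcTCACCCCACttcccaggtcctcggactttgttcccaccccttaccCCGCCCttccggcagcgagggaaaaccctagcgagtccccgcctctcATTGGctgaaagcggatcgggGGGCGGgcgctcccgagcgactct
Msmo1: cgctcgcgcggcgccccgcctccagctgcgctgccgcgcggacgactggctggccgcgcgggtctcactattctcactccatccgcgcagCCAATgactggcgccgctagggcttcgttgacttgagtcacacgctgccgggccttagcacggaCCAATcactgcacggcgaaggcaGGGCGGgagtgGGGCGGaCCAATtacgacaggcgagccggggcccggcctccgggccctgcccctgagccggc
Mvd: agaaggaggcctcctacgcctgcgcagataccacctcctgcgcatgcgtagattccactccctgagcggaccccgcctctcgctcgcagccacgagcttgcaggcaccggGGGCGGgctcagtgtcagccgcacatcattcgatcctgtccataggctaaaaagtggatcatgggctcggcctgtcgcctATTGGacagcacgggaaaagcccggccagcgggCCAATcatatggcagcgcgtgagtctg
Idi1: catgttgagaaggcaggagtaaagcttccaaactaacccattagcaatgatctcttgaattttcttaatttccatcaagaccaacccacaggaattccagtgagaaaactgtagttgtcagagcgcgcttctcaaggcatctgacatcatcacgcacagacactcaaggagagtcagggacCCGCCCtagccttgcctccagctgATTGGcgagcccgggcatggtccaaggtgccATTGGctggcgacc
The printed stretch of Hmgcs1 holds CCAAT 3 times, all on the reverse strand (ATTGG), and TCACNCCAC once as TCACCCCAC. That of Msmo1 holds CCAAT 3 times on the forward strand, while those of Mvd and Idi1 hold it 2 times each.

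Both branches were expressed in every class. In the Control library the 18 cholesterol genes together reached 841 CPM in glia and neuron-like cells, 753 CPM in mesenchymal, 729 CPM in ductal, 667 CPM in acinar and 655 CPM in mesothelial cells. Lower sums were found in endocrine cells (605 CPM), endothelial cells (601 CPM), endocrine progenitors (500 CPM) and macrophages (481 CPM). The intervals of acinar and mesothelial cells overlapped, as did those of endocrine and endothelial cells and those of endocrine progenitors and macrophages. In the Null library the order was mesenchymal (704 CPM), ductal (688 CPM), glia and neuron (643 CPM), endothelial (617 CPM), endocrine (548 CPM), acinar (502 CPM), endocrine progenitor (467 CPM), mesothelial (383 CPM) and macrophage (381 CPM). Mesothelial cells thus moved from position 5 of 9 to position 8, where their interval overlapped that of macrophages, and acinar cells from position 4 to 6.

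The 8 fatty acid genes together were highest in ductal cells and endocrine progenitors in both libraries, at 540 CPM and 514 CPM in Control cells and 549 CPM and 567 CPM in Null cells. They were lowest in endothelial cells (288 and 280 CPM) and macrophages (293 and 255 CPM). Single genes had patterns of their own. Acly, which makes the acetyl-CoA that feeds both branches, was highest in endocrine progenitors, at 310 CPM in Control and 362 CPM in Null cells, and next highest in endocrine cells at 219 and 286 CPM. Insig1 was also highest in endocrine progenitors, at 76.3 and 93.8 CPM. Stard4, a carrier that moves sterols between membranes, was highest in endothelial cells, at 82.6 and 107 CPM. Scd2, a desaturase that makes monounsaturated fatty acids, was highest in ductal cells at 262 and 269 CPM, and Ebp, a sterol isomerase, in macrophages at 60.8 and 65.8 CPM. Elovl6, which lengthens fatty acids, was lowest in endocrine progenitors, at 7.73 and 3.18 CPM. Of the 30 genes, 15 had the same highest class in both libraries and 14 the same lowest class, among 9 classes. The plot of summed CPM by class shows both branches side by side.

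**Figure D1:**
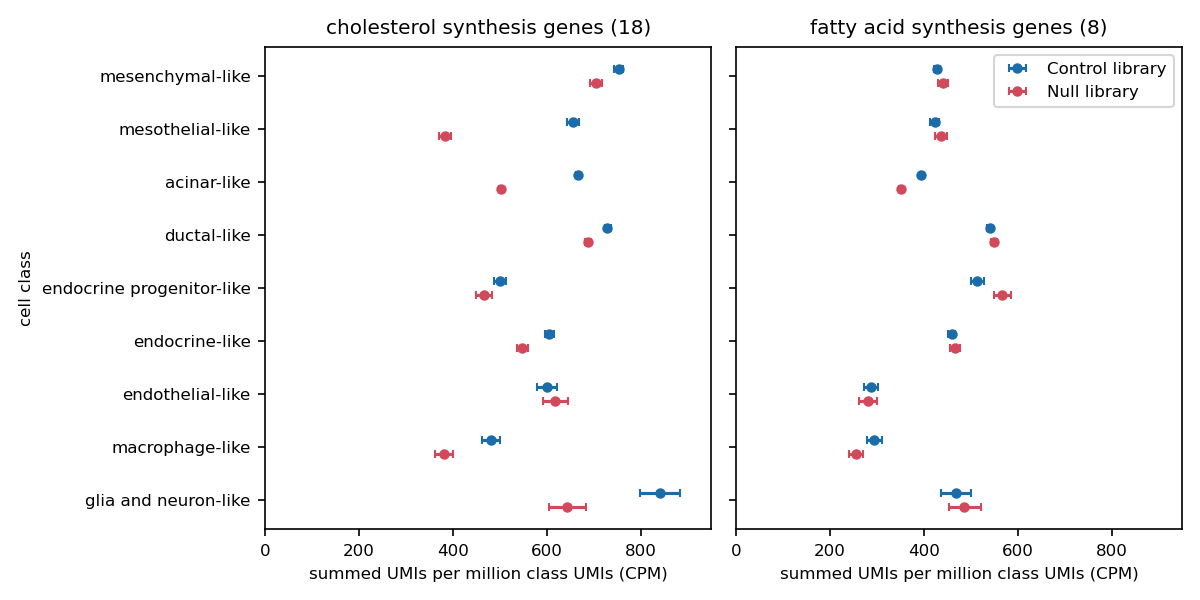
Summed CPM (horizontal axis) of the 18 cholesterol synthesis genes (left) and the 8 fatty acid synthesis genes (right) in 9 cell classes of the Control and Null libraries, with 95% counting intervals. The cholesterol sum of mesothelial cells was 655 CPM in Control and 383 CPM in Null cells, and that of acinar cells 667 and 502 CPM, while the fatty acid sums of mesothelial cells were 423 and 437 CPM.

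In mesothelial cells, the epithelial sheet that covers the organ, all 18 cholesterol genes had a lower CPM in the Null library and 17 of them past the threshold used throughout, a Null level at least 20% below the Control level (a log2 ratio of -0.32 or lower). None was higher past the matching threshold, a level at least 25% above the Control level (a log2 ratio of 0.32 or higher). Of all 14348 features tested in these cells (at least 20 UMIs), 23.7% were lower and 20.6% higher past the threshold, and among features of at least 5 CPM 18.5% were lower. The median log2 ratio of Null over Control CPM was -0.80 for the 18 genes and -0.04 for all features. The lowest ratios belonged to enzymes of the mevalonate part and of squalene. Mvd, which decarboxylates mevalonate diphosphate, had 210 Control UMIs (12.3 CPM) and 54 Null UMIs (5.35 CPM), a log2 ratio of -1.20 (-1.66 to -0.76). Sqle, the squalene epoxidase, had 732 Control UMIs (42.9 CPM) and 194 Null UMIs (19.2 CPM), a log2 ratio of -1.16 (-1.39 to -0.93). Idi1, the isomerase that makes the building blocks interchangeable, had 1020 Control UMIs (59.7 CPM) and 274 Null UMIs (27.1 CPM), a log2 ratio of -1.14 (-1.34 to -0.94). Each of these was less than 50% of its Control level.

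Later steps were lower as well. Dhcr7, which reduces the last double bond on a route to cholesterol, had 216 Control UMIs (12.6 CPM) and 59 Null UMIs (5.85 CPM), a log2 ratio of -1.11 (-1.55 to -0.69). Nsdhl and Msmo1, which remove methyl groups after lanosterol, had log2 ratios of -1.0 (-1.41 to -0.60) and -0.98 (-1.19 to -0.78). Hmgcs1, the HMG-CoA synthase whose promoter is shown above, had 1505 Control UMIs (88.1 CPM) and 495 Null UMIs (49.0 CPM), a log2 ratio of -0.85 (-1.0 to -0.70). The smallest differences were those of Pmvk, Sc5d and Mvk, 2 kinases of the mevalonate part and a sterol desaturase. Mvk had 432 Control UMIs (25.3 CPM) and 181 Null UMIs (17.9 CPM), a log2 ratio of -0.50 (-0.75 to -0.24). Sc5d had 431 Control UMIs (25.2 CPM) and 191 Null UMIs (18.9 CPM), a log2 ratio of -0.42 (-0.67 to -0.17). Pmvk had 770 Control UMIs (45.1 CPM) and 367 Null UMIs (36.4 CPM), a log2 ratio of -0.31 (-0.49 to -0.13), the 1 gene of the 18 short of the threshold. Even the upper bound of each interval lay below 0.

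The branches parted in mesothelial cells. The summed cholesterol genes had a log2 ratio of -0.77 (-0.83 to -0.72) and the summed fatty acid genes 0.05 (-0.01 to 0.10), a difference of -0.82 (-0.90 to -0.75). The fatty acid sum is dominated by Scd2, which ran the other way. Of the 8 fatty acid genes, 3 were lower and 1 higher past the threshold (23.7% and 20.6% of features), with a median of -0.18. Scd2 had 3165 Control UMIs (185 CPM) and 2507 Null UMIs (248 CPM), a log2 ratio of 0.42 (0.35 to 0.50). Acly had 1084 Control UMIs (63.5 CPM) and 437 Null UMIs (43.3 CPM), a log2 ratio of -0.55 (-0.72 to -0.39). Fasn, the fatty acid synthase, had 681 Control UMIs (39.9 CPM) and 301 Null UMIs (29.8 CPM), a log2 ratio of -0.42 (-0.62 to -0.22). Fads2, a desaturase of polyunsaturated fatty acids, had 919 Control UMIs (53.8 CPM) and 428 Null UMIs (42.4 CPM), a log2 ratio of -0.34 (-0.51 to -0.18). Acaca, the acetyl-CoA carboxylase, and Scd1, a second stearoyl-CoA desaturase, had intervals that included 0. Acaca had 300 Control UMIs (17.6 CPM) and 170 Null UMIs (16.8 CPM), a log2 ratio of -0.06 (-0.34 to 0.22), and Scd1 had 66 Control UMIs (3.86 CPM) and 44 Null UMIs (4.36 CPM), a log2 ratio of 0.17 (-0.41 to 0.75).

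Several other measures moved with the mesothelial difference. Of 15 S phase genes 14 were lower in Null cells past the threshold (median log2 ratio -0.51), as were 14 of 15 mitotic genes (-0.52), and 16 of 19 immediate early genes, which respond to dissociation as well as to signals, were higher (0.72). Acinar enzyme genes, which mesothelial cells do not make, were lower in 12 of 16 (-0.72), and free RNA was estimated at 19.0% of the UMIs of Control and 7.20% of Null mesothelial cells. Their part in the difference was not tested. With the estimated free RNA subtracted, 18 of 18 cholesterol genes were lower past the threshold, and among male cells of both libraries 17 of 18. In the better-sequenced mesothelial cluster, led by Upk3b, the summed cholesterol genes stood at 664 CPM in 1121 Control cells and 380 CPM in 501 Null cells. In the low-UMI cluster the sums were 567 and 432 CPM.

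In acinar cells, which make the digestive enzymes, all 18 cholesterol genes also had a lower CPM in the Null library, with log2 ratios between -0.69 and -0.19. Of these, 13 were lower past the threshold and none was higher. In this class 14.6% of 16585 features were lower and 11.9% higher past the threshold, and of features of at least 5 CPM, a level that all 18 genes reached, 3.73% were lower. The median log2 ratio was -0.36 for the 18 genes and -0.02 for all features. Msmo1, the methylsterol oxidase, stood lowest and had 5058 Control UMIs (44.6 CPM) and 3345 Null UMIs (27.6 CPM), a log2 ratio of -0.69 (-0.76 to -0.63). Fdps, the farnesyl diphosphate synthase at the branch point to prenylated proteins and other products, had 14273 Control UMIs (126 CPM) and 10368 Null UMIs (85.5 CPM), a log2 ratio of -0.56 (-0.59 to -0.52). Hmgcs1 had 7481 Control UMIs (65.9 CPM) and 5485 Null UMIs (45.2 CPM), a log2 ratio of -0.54 (-0.59 to -0.49). The differences were smaller than in mesothelial cells, and only Msmo1 passed 1.5-fold.

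Mvk (-0.50 (-0.60 to -0.41)) and Sqle (-0.47 (-0.53 to -0.40)) followed, with Mvd, Lss, Dhcr7, Tm7sf2, Idi1, Cyp51, Nsdhl and Hsd17b7 between -0.41 and -0.33. Lss closes squalene epoxide into lanosterol, Cyp51 removes a methyl group from lanosterol, and Tm7sf2 and Hsd17b7 are reductases of later sterols. The smallest ratios in acinar cells belonged to Fdft1, Ebp and Sc5d. Fdft1, the squalene synthase, had 4559 Control UMIs (40.2 CPM) and 4153 Null UMIs (34.3 CPM), a log2 ratio of -0.23 (-0.29 to -0.17). Ebp had 4500 Control UMIs (39.7 CPM) and 4200 Null UMIs (34.6 CPM), a log2 ratio of -0.20 (-0.26 to -0.13). Sc5d had 3381 Control UMIs (29.8 CPM) and 3165 Null UMIs (26.1 CPM), a log2 ratio of -0.19 (-0.26 to -0.12). The remaining genes short of the threshold were Pmvk at -0.28 and Acat2, the thiolase of the entry step, at -0.28.

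Among fatty acid genes in acinar cells, Acly, Acaca, Fasn and Scd2 stayed short of the threshold, and Fads1, Fads2, Elovl6 and Scd1 were lower past it. Acly had 7922 Control UMIs (69.8 CPM) and 7980 Null UMIs (65.8 CPM), a log2 ratio of -0.09 (-0.13 to -0.04). Acaca had 1458 Control UMIs (12.9 CPM) and 1596 Null UMIs (13.2 CPM), a log2 ratio of 0.04 (-0.07 to 0.14). Fasn had 3988 Control UMIs (35.2 CPM) and 4335 Null UMIs (35.8 CPM), a log2 ratio of 0.03 (-0.04 to 0.09). Scd2 had 21509 Control UMIs (190 CPM) and 20801 Null UMIs (172 CPM), a log2 ratio of -0.14 (-0.17 to -0.12). Among the lower genes, Fads1, the partner desaturase of Fads2, had 1920 Control UMIs (16.9 CPM) and 1353 Null UMIs (11.2 CPM), a log2 ratio of -0.60 (-0.70 to -0.50). Fads2 had 4122 Control UMIs (36.3 CPM) and 3330 Null UMIs (27.5 CPM), a log2 ratio of -0.40 (-0.47 to -0.34). Elovl6 was lower too, with a log2 ratio of -0.40 (-0.47 to -0.33). Scd1, scarce here, had 34 Control UMIs (0.300 CPM) and 20 Null UMIs (0.165 CPM), a log2 ratio of -0.86 (-1.74 to -0.02). In all, 4 of 8 fatty acid genes were lower past the threshold and none higher (14.6% and 11.9% of features), and the median was -0.27. The summed cholesterol ratio (-0.41 (-0.42 to -0.39)) was lower than the summed fatty acid ratio (-0.17 (-0.19 to -0.15)) by a difference of -0.24 (-0.26 to -0.21).

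Acinar cells of the Null library were richer in digestive enzyme RNA. The 20 enzyme genes took 2.80% of Control and 4.94% of Null acinar UMIs, and 18 of them were higher past the threshold (median log2 ratio 1.14). With the enzymes left out of the class total, 11 of 18 cholesterol genes were lower past the threshold. The enzyme-rich cluster led by 2210010C04Rik, Cela2a and Try5 held 175 Control and 569 Null cells and had the lowest cholesterol sum of the 6 acinar clusters in both libraries, at 523 and 463 CPM. The sum was lower in Null cells in each of the 6 clusters, from -0.14 (-0.23 to -0.04) in the cluster led by Fam181b to -0.47 (-0.51 to -0.44) in the cluster led by Snhg4, where 671 CPM in Control cells stood against 483 in Null cells. With Null and Control cells of each cluster weighted alike, 9 of 18 genes were lower past the threshold. S phase and mitotic genes differed little in acinar cells, with medians of -0.06 and -0.12.

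**Figure D2:**
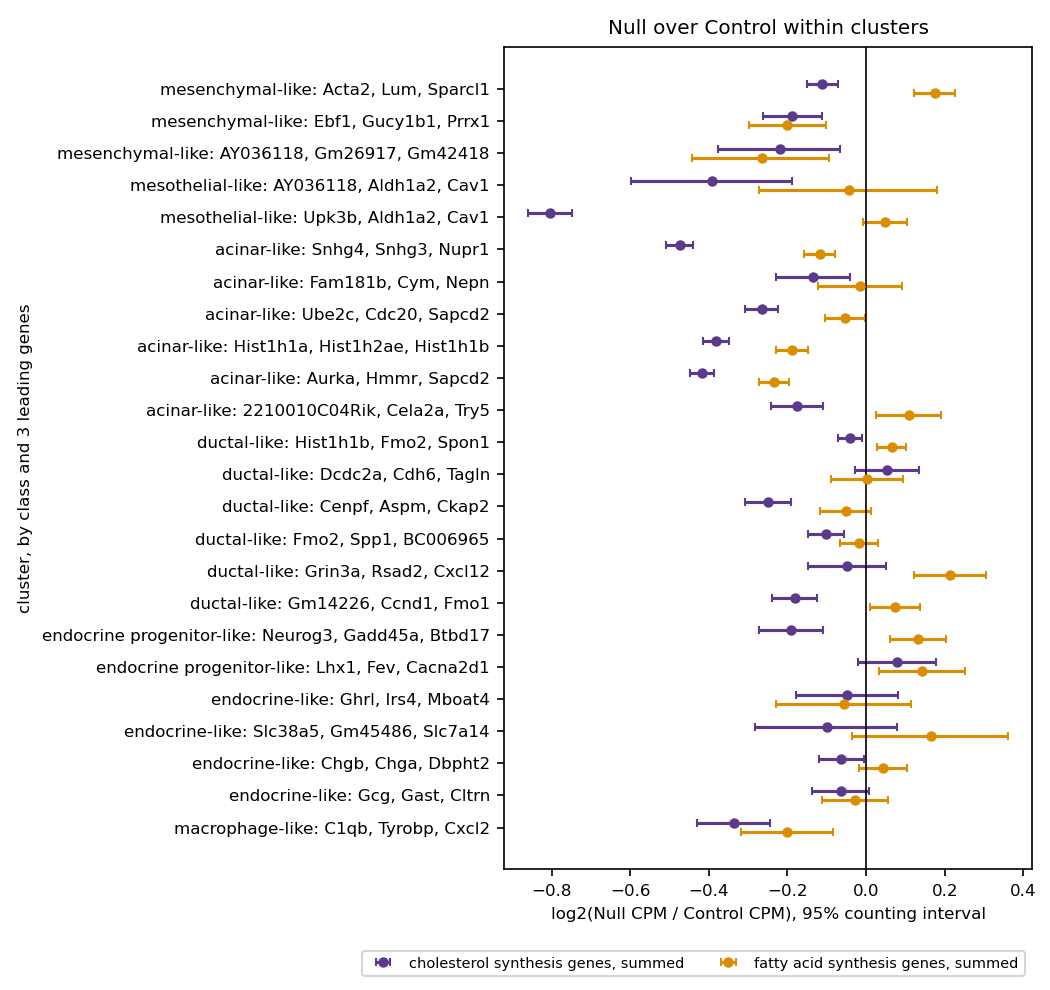
Log2 ratio of Null over Control CPM (horizontal axis, 95% counting intervals) of the summed cholesterol and fatty acid synthesis genes within 24 clusters, each named by its class and its 3 leading genes. The cholesterol ratio was below 0 in all 6 acinar and both mesothelial clusters and lowest, at -0.80, in the mesothelial cluster led by Upk3b.

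The Control library held cells of male and female embryos, so the sexes within 1 library could be set beside the Null level. Each sex pools an unknown number of embryos, so their difference does not measure the spread between single embryos. Male cells could also be compared alone, since the Null cells were male. In acinar cells, 0 of 18 cholesterol genes differed past the threshold between the 1505 female and 1388 male Control cells, and the summed CPM was 671 and 669, against 503 in 2425 male Null cells. The genes of male Null cells had a median log2 ratio of -0.37 over male Control cells, with 13 of 18 lower past the threshold, and against female Control cells 10 of 18 were lower past the threshold. Msmo1 was at 44.1 CPM in female Control, 44.3 CPM in male Control and 27.7 CPM in male Null acinar cells. Fdps was at 132, 123 and 85.7 CPM in the same order.

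In mesothelial cells the sexes of the Control library lay further apart. The sum was 620 CPM in 485 female and 702 CPM in 501 male Control cells and 388 CPM in 514 male Null cells. Between the sexes 4 of 18 genes passed the threshold, with a median female over male log2 ratio of -0.17, and Lss and Tm7sf2 were lower in female cells by -0.99 and -0.86 on the log2 scale. The median of male Null over male Control cells was -0.91, with 17 of 18 genes lower past the threshold, and over female Control cells it was -0.58, with 15 of 18 past the threshold. Sqle was at 42.7 CPM in female Control, 46.0 CPM in male Control and 19.6 CPM in male Null cells. For Lss the female Control level of these cells lay below the Null level, so that the groups overlapped. Nsdhl and Ebp lie on chromosome X. Nsdhl had 13.7, 14.8 and 6.81 CPM and Ebp 23.6, 22.7 and 16.2 CPM in female Control, male Control and male Null mesothelial cells.

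**Figure D3:**
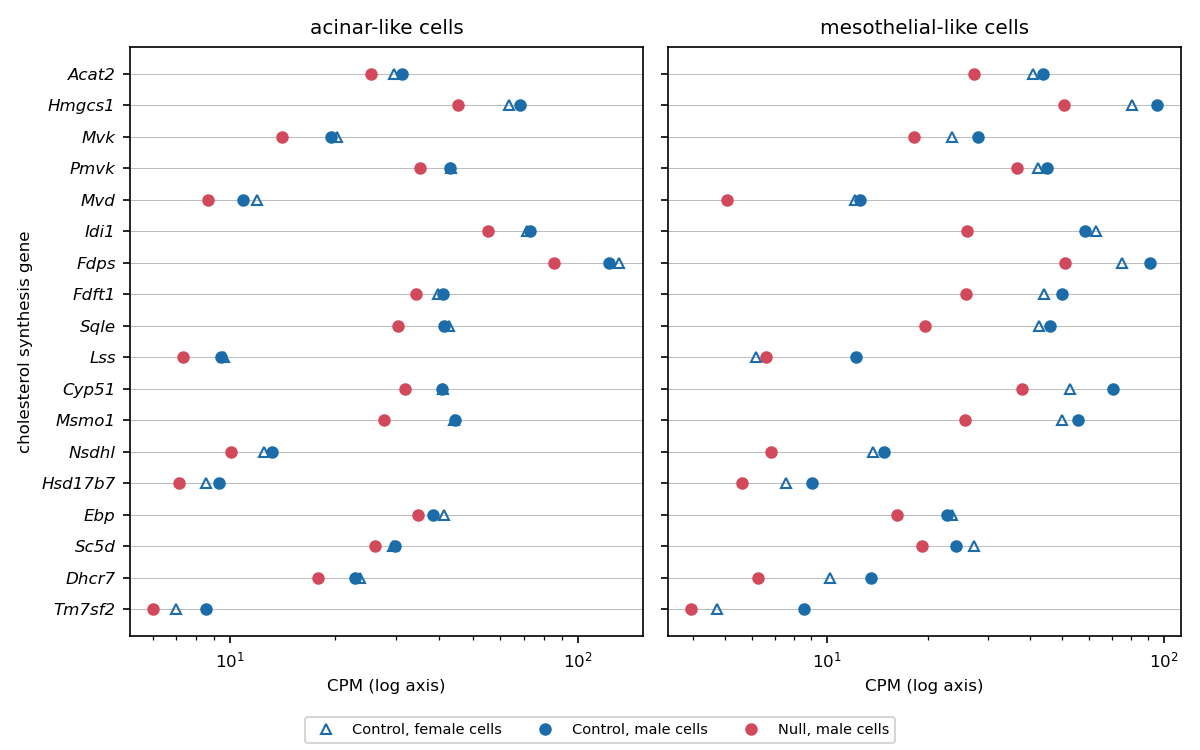
CPM (log axis) of the 18 cholesterol synthesis genes in female and male cells of the Control library and male cells of the Null library, for acinar cells (left) and mesothelial cells (right). Male Null cells lay lowest for all 18 genes in acinar cells, and for all but Lss in mesothelial cells.

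Macrophages, the smallest compared class, had 10 of 18 cholesterol genes lower past the threshold and none higher, where 30.3% of 12058 features were lower and 19.4% higher, and 26.2% of those of at least 5 CPM were lower. The median was -0.40, against -0.07 for all features. Fdft1 had 105 Control UMIs (23.1 CPM) and 43 Null UMIs (9.93 CPM), a log2 ratio of -1.22 (-1.77 to -0.70). Sqle had 100 Control UMIs (22.0 CPM) and 45 Null UMIs (10.4 CPM), a log2 ratio of -1.08 (-1.63 to -0.56). Acat2 had 104 Control UMIs (22.9 CPM) and 50 Null UMIs (11.5 CPM), a log2 ratio of -0.99 (-1.51 to -0.49). These intervals are wide, since each gene had few UMIs. At the other end, Hsd17b7 had 31 Control UMIs (6.83 CPM) and 31 Null UMIs (7.16 CPM), a log2 ratio of 0.07 (-0.70 to 0.83). Ebp had 276 Control UMIs (60.8 CPM) and 285 Null UMIs (65.8 CPM), a log2 ratio of 0.11 (-0.13 to 0.36). Pmvk had 170 Control UMIs (37.4 CPM) and 180 Null UMIs (41.6 CPM), a log2 ratio of 0.15 (-0.16 to 0.46). Their intervals included 0. The summed ratio was -0.34 (-0.43 to -0.25), and its difference from that of acinar cells, -0.07 (-0.17 to 0.02), included 0. Between the 125 female and 76 male Control macrophages 6 of 15 genes passed the threshold, so that differences past it also occurred within 1 library. For Fdft1, Sqle and Acat2 the female over male log2 ratios were -0.32 (-1.10 to 0.47), 0.14 (-0.69 to 1.0) and 0.12 (-0.65 to 0.92). The median of male Null over male Control cells was -0.56, with 9 of 15 genes lower past the threshold. Free RNA was estimated at 25.6% of Control and 7.13% of Null macrophage UMIs, and its part in the difference was not tested. With it subtracted, 11 genes were lower past the threshold, and the matching share of all features was not counted.

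Mesenchymal cells showed a mixed pattern, with 5 of 18 cholesterol genes lower past the threshold and none higher. Of 15204 features 20.9% were lower and 19.7% higher. At a level of at least 5 CPM 4 of 17 cholesterol genes were lower, and 12.6% of features. The median was -0.25, against 0.01 for all features. The 3 lowest genes were late enzymes, but late enzymes did not move together. Msmo1 was at -0.19 and Hsd17b7 at -0.11, and Cyp51, which acts on lanosterol, was the highest of the 18. Tm7sf2 had 172 Control UMIs (5.66 CPM) and 47 Null UMIs (3.25 CPM), a log2 ratio of -0.80 (-1.30 to -0.33). Ebp had 886 Control UMIs (29.1 CPM) and 279 Null UMIs (19.3 CPM), a log2 ratio of -0.60 (-0.80 to -0.40). Dhcr7 had 509 Control UMIs (16.7 CPM) and 175 Null UMIs (12.1 CPM), a log2 ratio of -0.47 (-0.73 to -0.22). In contrast, 3 enzymes were higher in Null cells short of the threshold, with intervals above 0. Cyp51 had 2144 Control UMIs (70.5 CPM) and 1242 Null UMIs (85.8 CPM), a log2 ratio of 0.28 (0.18 to 0.38). Hmgcs1 had 3232 Control UMIs (106 CPM) and 1824 Null UMIs (126 CPM), a log2 ratio of 0.25 (0.16 to 0.33). Idi1 had 1705 Control UMIs (56.1 CPM) and 904 Null UMIs (62.4 CPM), a log2 ratio of 0.16 (0.04 to 0.27). The mesenchymal and mesothelial summed ratios differed by -0.68 (-0.74 to -0.61). Estimated free RNA was 27.1% in Control and 7.75% in Null mesenchymal cells, and with it subtracted 11 of 18 genes were lower past the threshold. The share of all features lower after this subtraction was not counted, so that count has no background beside it.

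Ductal cells, which arise beside acinar cells from the same epithelium, had 1 of 18 cholesterol genes lower past the threshold, where 9.10% of 16335 features were lower and 19.9% higher, and 2.50% of those of at least 5 CPM were lower. The median was -0.09, against 0.10 for all features. Fdps was the gene past the threshold and had 7408 Control UMIs (106 CPM) and 4805 Null UMIs (83.1 CPM), a log2 ratio of -0.35 (-0.40 to -0.30). Mvk had 1490 Control UMIs (21.3 CPM) and 1017 Null UMIs (17.6 CPM), a log2 ratio of -0.28 (-0.39 to -0.16). Tm7sf2 had 709 Control UMIs (10.1 CPM) and 511 Null UMIs (8.84 CPM), a log2 ratio of -0.20 (-0.37 to -0.03). Higher values were small. Lss had 678 Control UMIs (9.71 CPM) and 574 Null UMIs (9.93 CPM), a log2 ratio of 0.03 (-0.13 to 0.20). Hsd17b7 had 784 Control UMIs (11.2 CPM) and 699 Null UMIs (12.1 CPM), a log2 ratio of 0.11 (-0.04 to 0.26). Hmgcs1 had 6306 Control UMIs (90.3 CPM) and 5786 Null UMIs (100 CPM), a log2 ratio of 0.15 (0.10 to 0.20). The summed ratios of acinar and ductal cells differed by -0.33 (-0.35 to -0.30), and those of mesothelial and ductal cells by -0.69 (-0.75 to -0.63). The libraries filled different ductal clusters. The cluster led by Dcdc2a held 131 Control and 572 Null cells and that led by Gm14226 held 652 and 179, and 1 cluster of 58 cells, led by Onecut2, held Null cells only. Summed cholesterol ratios ran from -0.25 (-0.31 to -0.19) in the cluster led by Cenpf to 0.05 (-0.03 to 0.14) in the cluster led by Dcdc2a.

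In endocrine progenitors, 2 of 18 cholesterol genes were lower past the threshold, where 14.4% of 13114 features were lower and 14.5% higher, and 8.83% of those of at least 5 CPM were lower. The median was -0.16, against 0.04 for all features. Nsdhl had 113 Control UMIs (9.49 CPM) and 49 Null UMIs (7.42 CPM), a log2 ratio of -0.35 (-0.87 to 0.14). Mvk had 194 Control UMIs (16.3 CPM) and 86 Null UMIs (13.0 CPM), a log2 ratio of -0.32 (-0.71 to 0.05). Hsd17b7 had 117 Control UMIs (9.83 CPM) and 53 Null UMIs (8.03 CPM), a log2 ratio of -0.29 (-0.79 to 0.19). All 3 intervals included 0. S phase genes were lower past the threshold in 12 of 15 (median -0.55) and mitotic genes in 8 of 15 (-0.38), and free RNA was estimated at 17.5% of Control and 7.19% of Null UMIs. Their part in these ratios was not tested. The highest ratios also had intervals that included 0. Sqle had 326 Control UMIs (27.4 CPM) and 206 Null UMIs (31.2 CPM), a log2 ratio of 0.19 (-0.07 to 0.45). Hmgcs1 had 684 Control UMIs (57.5 CPM) and 416 Null UMIs (63.0 CPM), a log2 ratio of 0.13 (-0.05 to 0.31). Tm7sf2 had 79 Control UMIs (6.64 CPM) and 46 Null UMIs (6.97 CPM), a log2 ratio of 0.07 (-0.49 to 0.61). The summed cholesterol ratio differed between the 2 clusters of this class, at -0.19 (-0.27 to -0.11) in cells led by Neurog3 and 0.08 (-0.02 to 0.18) in cells led by Lhx1 and Fev.

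In endocrine cells, 3 of 18 cholesterol genes were lower past the threshold, where 21.2% of 15360 features were lower and 21.9% higher, and 15.0% of those of at least 5 CPM were lower. The median was -0.05, against 0.06 for all features. Idi1 had 883 Control UMIs (33.6 CPM) and 371 Null UMIs (19.9 CPM), a log2 ratio of -0.76 (-0.94 to -0.58). Acat2 had 553 Control UMIs (21.1 CPM) and 246 Null UMIs (13.2 CPM), a log2 ratio of -0.68 (-0.90 to -0.46). Fdps had 2426 Control UMIs (92.3 CPM) and 1309 Null UMIs (70.1 CPM), a log2 ratio of -0.40 (-0.50 to -0.30). The other 15 ratios lay between -0.29 and 0.13. In male cells Idi1 was at -0.48 and Acat2 at -0.39, past the threshold, and Fdps at -0.14, short of it. The 18 genes of male cells summed to 563 CPM in Control and 546 CPM in Null cells, with a median log2 ratio of -0.01. Within clusters the summed ratio was -0.05 (-0.18 to 0.08) in cells led by Ghrl and -0.10 (-0.28 to 0.08) in cells led by Slc38a5. It was -0.07 (-0.14 to 0.01) in cells led by Gcg and -0.06 (-0.12 to -0.01) in cells led by Chgb. Mvd had 373 Control UMIs (14.2 CPM) and 271 Null UMIs (14.5 CPM), a log2 ratio of 0.03 (-0.20 to 0.26). Pmvk had 1793 Control UMIs (68.3 CPM) and 1309 Null UMIs (70.1 CPM), a log2 ratio of 0.04 (-0.07 to 0.14). Tm7sf2 had 202 Control UMIs (7.69 CPM) and 157 Null UMIs (8.40 CPM), a log2 ratio of 0.13 (-0.18 to 0.44). Cell cycle genes differed widely in this class, with medians of -1.51 for S phase and -3.07 for mitotic genes, and free RNA was estimated at 34.8% of Control and 7.55% of Null UMIs. Their part in the 3 lower genes was not tested. The second doublet call, described below, marked 206 Control and 7 Null endocrine cells. Without them fewer cholesterol genes were lower past the threshold, as given in the last section.

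Across the 7 classes, Fdps was the 1 cholesterol gene whose interval lay below 0 in all, with ratios from -0.78 in mesothelial to -0.25 in endocrine progenitor cells. In male cells the endocrine ratio of Fdps was -0.14 (-0.28 to 0.00), short of the threshold and with an interval that included 0. Acat2, Mvk, Msmo1, Nsdhl, Sc5d and Dhcr7 also had ratios below 0 in all 7 classes, with intervals below 0 in 3 to 5. Hmgcs1 and Cyp51 had ratios below 0 in 3 classes each, and Hsd17b7 in 4. Hmgcs1 ranged from -0.85 in mesothelial to 0.25 in mesenchymal cells and Cyp51 from -0.66 to 0.28 in the same classes. The heat map of ratios by gene and class shows the mesothelial and acinar columns below 0 throughout the cholesterol block.

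**Figure D4:**
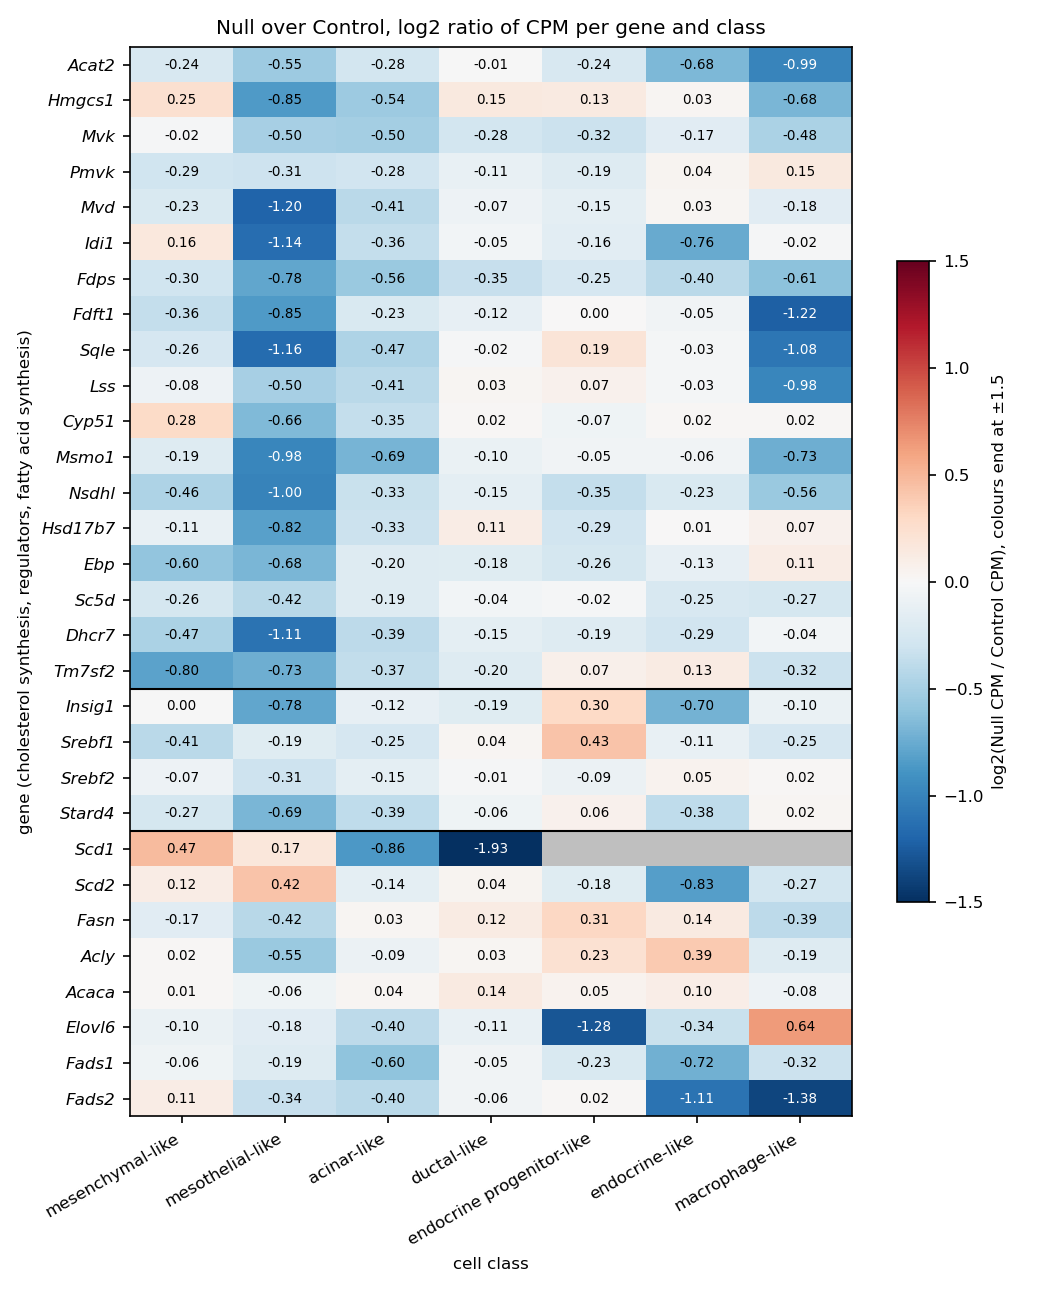
Log2 ratio of Null over Control CPM (colour and printed value) for 30 genes (vertical axis, cholesterol synthesis above, regulators in the middle, fatty acid synthesis below) in 7 cell classes (horizontal axis). Grey marks Scd1 in 3 classes with under 20 UMIs. All 18 cholesterol genes are below 0 in mesothelial and acinar cells, while fatty acid genes take both signs in each class.

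Srebf2 RNA, which encodes the main activator of cholesterol enzymes, had 701 Control UMIs (41.0 CPM) and 334 Null UMIs (33.1 CPM), a log2 ratio of -0.31 (-0.50 to -0.12) in mesothelial cells and 4018 Control UMIs (35.4 CPM) and 3875 Null UMIs (32.0 CPM), a log2 ratio of -0.15 (-0.21 to -0.08) in acinar cells. In the other classes its UMIs in Control and Null cells and its log2 ratio were 1345 and 610 UMIs with -0.07 (-0.21 to 0.07) in mesenchymal, 2525 and 2071 UMIs with -0.01 (-0.10 to 0.07) in ductal, 472 and 246 UMIs with -0.09 (-0.32 to 0.14) in endocrine progenitor, 1134 and 834 UMIs with 0.05 (-0.08 to 0.18) in endocrine and 180 and 174 UMIs with 0.02 (-0.29 to 0.33) in macrophage cells, and these 5 intervals included 0. In no class did Srebf2 pass the threshold. Insig1, itself a known target of SREBP, had 446 Control UMIs (26.1 CPM) and 154 Null UMIs (15.3 CPM), a log2 ratio of -0.78 (-1.05 to -0.51) in mesothelial cells. It had 591 Control UMIs (22.5 CPM) and 258 Null UMIs (13.8 CPM), a log2 ratio of -0.70 (-0.92 to -0.49) in endocrine cells and 908 Control UMIs (76.3 CPM) and 619 Null UMIs (93.8 CPM), a log2 ratio of 0.30 (0.15 to 0.45) in endocrine progenitors. In endocrine cells the Insig1 ratio turned to 0.23 when Null and Control cells of each cluster were weighted alike. In endocrine progenitors, where Insig1 was most abundant, female Control cells had 87.1 CPM, male Control cells 65.6 CPM and male Null cells 93.6 CPM, so that the sexes of the Control library lay apart. The other values of Insig1 were 1185 and 563 UMIs with 0.00 (-0.15 to 0.14) in mesenchymal, 4619 and 4539 UMIs with -0.12 (-0.18 to -0.06) in acinar, 1947 and 1417 UMIs with -0.19 (-0.29 to -0.09) in ductal and 119 and 106 UMIs with -0.10 (-0.49 to 0.29) in macrophage cells.

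Srebf1 had 137 Control UMIs (11.5 CPM) and 102 Null UMIs (15.5 CPM), a log2 ratio of 0.43 (0.04 to 0.81) in endocrine progenitors and 379 Control UMIs (12.5 CPM) and 136 Null UMIs (9.39 CPM), a log2 ratio of -0.41 (-0.70 to -0.12) in mesenchymal cells, ratios past the threshold in opposite directions. In male cells the mesenchymal ratio of Srebf1 was -0.23 (-0.61 to 0.15), short of the threshold. In endocrine progenitors it was 0.74 (0.22 to 1.28), with 14.1 CPM in female Control, 9.14 CPM in male Control and 15.3 CPM in male Null cells. Its other values were 202 and 105 UMIs with -0.19 (-0.54 to 0.16) in mesothelial, 1876 and 1687 UMIs with -0.25 (-0.35 to -0.15) in acinar, 1574 and 1334 UMIs with 0.04 (-0.07 to 0.14) in ductal, 451 and 298 UMIs with -0.11 (-0.32 to 0.11) in endocrine and 60 and 48 UMIs with -0.25 (-0.83 to 0.32) in macrophage cells. Stard4 was lower in 3 classes. It had 738 Control UMIs (43.2 CPM) and 271 Null UMIs (26.9 CPM), a log2 ratio of -0.69 (-0.89 to -0.48) in mesothelial cells, 4034 Control UMIs (35.6 CPM) and 3298 Null UMIs (27.2 CPM), a log2 ratio of -0.39 (-0.45 to -0.32) in acinar cells and 639 Control UMIs (24.3 CPM) and 350 Null UMIs (18.7 CPM), a log2 ratio of -0.38 (-0.57 to -0.19) in endocrine cells, each past the threshold. In endocrine cells the ratio of Stard4 turned to 0.084 with clusters weighted alike. In the remaining classes Stard4 had 976 and 387 UMIs with -0.27 (-0.44 to -0.09) in mesenchymal, 3173 and 2521 UMIs with -0.06 (-0.14 to 0.02) in ductal, 157 and 91 UMIs with 0.06 (-0.32 to 0.45) in endocrine progenitor and 100 and 97 UMIs with 0.02 (-0.39 to 0.44) in macrophage cells.

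Fatty acid genes showed no common direction across the remaining classes. In endocrine cells 4 of 7 genes were lower and 1 higher past the threshold (21.2% and 21.9% of features). The lowest ratios were those of 3 desaturases. Fads2 had 534 Control UMIs (20.3 CPM) and 176 Null UMIs (9.42 CPM), a log2 ratio of -1.11 (-1.36 to -0.86). Scd2 had 2774 Control UMIs (106 CPM) and 1114 Null UMIs (59.6 CPM), a log2 ratio of -0.83 (-0.93 to -0.72). Fads1 had 344 Control UMIs (13.1 CPM) and 149 Null UMIs (7.97 CPM), a log2 ratio of -0.72 (-1.0 to -0.43). In male cells of both libraries these ratios were nearer 0, at -0.54 (-0.90 to -0.18) for Fads2, -0.42 (-0.56 to -0.27) for Scd2 and -0.27 (-0.68 to 0.16) for Fads1, which no longer passed the threshold. The highest ratios were those of Acly, Fasn and Acaca. Acly had 5742 Control UMIs (219 CPM) and 5350 Null UMIs (286 CPM), a log2 ratio of 0.39 (0.34 to 0.44), and in male cells 0.26 (0.18 to 0.34), short of the threshold. Fasn had 1516 Control UMIs (57.7 CPM) and 1184 Null UMIs (63.4 CPM), a log2 ratio of 0.14 (0.02 to 0.25). Acaca had 459 Control UMIs (17.5 CPM) and 350 Null UMIs (18.7 CPM), a log2 ratio of 0.10 (-0.10 to 0.30).

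In endocrine progenitors 1 of 7 fatty acid genes was lower and none higher past the threshold (14.4% and 14.5% of features). Elovl6 was that gene and had 92 Control UMIs (7.73 CPM) and 21 Null UMIs (3.18 CPM), a log2 ratio of -1.28 (-2.04 to -0.58). Fads1 had 171 Control UMIs (14.4 CPM) and 81 Null UMIs (12.3 CPM), a log2 ratio of -0.23 (-0.63 to 0.16). Scd2 had 921 Control UMIs (77.4 CPM) and 452 Null UMIs (68.5 CPM), a log2 ratio of -0.18 (-0.34 to -0.01). At the other end, Fasn had 789 Control UMIs (66.3 CPM) and 543 Null UMIs (82.3 CPM), a log2 ratio of 0.31 (0.15 to 0.47). Acly had 3685 Control UMIs (310 CPM) and 2387 Null UMIs (362 CPM), a log2 ratio of 0.23 (0.15 to 0.30). Acaca had 179 Control UMIs (15.0 CPM) and 103 Null UMIs (15.6 CPM), a log2 ratio of 0.05 (-0.31 to 0.41). The summed fatty acid ratio of this class was above 0, at 0.14 (0.08 to 0.20). Most of that sum was Acly, with 3685 of 6116 Control UMIs and 2387 of 3743 Null UMIs. The median log2 ratio of the 7 genes was 0.02, against 0.04 for all features.

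Macrophages had 3 of 7 fatty acid genes lower and 1 higher past the threshold (30.3% and 19.4% of features). Fads2 had 87 Control UMIs (19.2 CPM) and 32 Null UMIs (7.39 CPM), a log2 ratio of -1.38 (-2.01 to -0.78). Fasn had 147 Control UMIs (32.4 CPM) and 107 Null UMIs (24.7 CPM), a log2 ratio of -0.39 (-0.76 to -0.02). Fads1 had 84 Control UMIs (18.5 CPM) and 64 Null UMIs (14.8 CPM), a log2 ratio of -0.32 (-0.82 to 0.16). Elovl6 was higher in Null macrophages, the opposite of endocrine progenitors, and had 110 Control UMIs (24.2 CPM) and 164 Null UMIs (37.9 CPM), a log2 ratio of 0.64 (0.29 to 1.01). Acaca had 74 Control UMIs (16.3 CPM) and 67 Null UMIs (15.5 CPM), a log2 ratio of -0.08 (-0.57 to 0.42), and Acly had 325 Control UMIs (71.6 CPM) and 271 Null UMIs (62.6 CPM), a log2 ratio of -0.19 (-0.43 to 0.04). The difference between the branches in macrophages, -0.14 (-0.28 to 0.01), included 0. Among male cells, 76 Control and 186 Null, the fatty acid sum was 253 CPM in Control and 261 CPM in Null cells. There 2 of 7 fatty acid genes were lower past the threshold, with a median log2 ratio of 0.05. The cholesterol sum of the same cells was 510 CPM in Control and 378 CPM in Null cells.

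Mesenchymal and ductal cells each had 1 of 8 genes of this branch past the threshold. Within clusters the summed ratios lay further apart. In mesenchymal cells the ratio was 0.18 (0.12 to 0.23) in the cluster led by Acta2. It was -0.20 (-0.30 to -0.10) in that led by Ebf1 and -0.27 (-0.44 to -0.09) in that led by AY036118. In ductal cells it ran from -0.05 (-0.12 to 0.01) in the cluster led by Cenpf to 0.21 (0.12 to 0.31) in that led by Grin3a. In mesenchymal cells Scd1 was the 1 gene of 8 past the threshold, and it was higher (19.7% of features were higher and 20.9% lower). It had 103 Control UMIs (3.39 CPM) and 68 Null UMIs (4.69 CPM), a log2 ratio of 0.47 (0.01 to 0.93). Scd2 had 5840 Control UMIs (192 CPM) and 3016 Null UMIs (208 CPM), a log2 ratio of 0.12 (0.05 to 0.18). Fads2 had 954 Control UMIs (31.4 CPM) and 490 Null UMIs (33.8 CPM), a log2 ratio of 0.11 (-0.05 to 0.27). On the lower side, Fasn had 1419 Control UMIs (46.7 CPM) and 599 Null UMIs (41.4 CPM), a log2 ratio of -0.17 (-0.32 to -0.04). Elovl6 had 1132 Control UMIs (37.2 CPM) and 502 Null UMIs (34.7 CPM), a log2 ratio of -0.10 (-0.26 to 0.05). Fads1 had 871 Control UMIs (28.6 CPM) and 397 Null UMIs (27.4 CPM), a log2 ratio of -0.06 (-0.24 to 0.11). In ductal cells 1 of 8 genes, Scd1, was lower past the threshold (9.10% of features), with 23 Control and 5 Null UMIs.

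In ductal cells the highest ratios were those of Acaca, Fasn and Scd2. Acaca had 1345 Control UMIs (19.3 CPM) and 1225 Null UMIs (21.2 CPM), a log2 ratio of 0.14 (0.03 to 0.25). Fasn had 3578 Control UMIs (51.2 CPM) and 3225 Null UMIs (55.8 CPM), a log2 ratio of 0.12 (0.05 to 0.19). Scd2 had 18327 Control UMIs (262 CPM) and 15562 Null UMIs (269 CPM), a log2 ratio of 0.04 (0.01 to 0.07). All 3 were higher in Null cells short of the threshold, with intervals above 0. Elovl6 had 3002 Control UMIs (43.0 CPM) and 2308 Null UMIs (39.9 CPM), a log2 ratio of -0.11 (-0.19 to -0.03), an interval below 0. Fads2 had 3759 Control UMIs (53.8 CPM) and 2988 Null UMIs (51.7 CPM), a log2 ratio of -0.06 (-0.13 to 0.01). Fads1 had 1608 Control UMIs (23.0 CPM) and 1284 Null UMIs (22.2 CPM), a log2 ratio of -0.05 (-0.16 to 0.06).

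Other genes of lipid metabolism were counted by list, beside the share of all features past the same threshold in the class. Of 9 genes of sterol uptake and transport, 5 were higher and 2 lower past the threshold in mesothelial cells (20.6% and 23.7% of features). Lrp1, a lipoprotein receptor, had 37.0 CPM in Control and 72.4 CPM in Null cells, a log2 ratio of 0.97 (0.81 to 1.13). In macrophages 4 of the 9 were higher and 1 lower (19.4% and 30.3% of features). Among the higher ones, Soat1, which esterifies cholesterol for storage, had 72.5 CPM in Control and 114 CPM in Null cells, a log2 ratio of 0.66 (0.45 to 0.86).

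The 4 genes that carry or cut SREBP showed none past the threshold in mesothelial and acinar cells and 2 lower in macrophages (30.3% of features), where Mbtps1, a protease of that step, had 41.2 CPM in Control and 24.7 CPM in Null cells, a log2 ratio of -0.74 (-1.09 to -0.39). Targets of LXR, the receptor that senses oxysterols, were higher in 5 of 7 in macrophages (19.4% of features), with a median of 0.39, and Abcg1, a cholesterol exporter, had 20.9 CPM in Control and 35.1 CPM in Null cells, a log2 ratio of 0.75 (0.37 to 1.13). In mesothelial cells 2 of 6 were lower and 2 higher (23.7% and 20.6% of features). Of these, Apoe, a lipid carrier, had 407 CPM in Control and 213 CPM in Null cells, a log2 ratio of -0.94 (-1.01 to -0.87), and Mylip, a ubiquitin ligase, had 17.7 CPM in Control and 9.91 CPM in Null cells, a log2 ratio of -0.84 (-1.18 to -0.51). In the list of other fatty acid synthesis genes 5 of 12 were lower and 2 higher in mesothelial cells (23.7% and 20.6% of features). In mesenchymal cells 6 of 12 were lower and 1 higher (20.9% and 19.7%), and in macrophages 6 of 11 and 1 (30.3% and 19.4%). Fewer were lower in endocrine (3 of 12), endocrine progenitor (2 of 11), acinar (2 of 12) and ductal cells (0 of 12), where 21.2%, 14.4%, 14.6% and 9.10% of features were lower. Me1, which supplies NADPH, had 11.5 CPM in Control and 26.6 CPM in Null cells, a log2 ratio of 1.21 (0.94 to 1.48) in mesothelial and 30.6 CPM in Control and 48.1 CPM in Null cells, a log2 ratio of 0.65 (0.57 to 0.73) in ductal cells but 4.33 CPM in Control and 2.75 CPM in Null cells, a log2 ratio of -0.65 (-0.86 to -0.45) in acinar cells. Mid1ip1, which activates acetyl-CoA carboxylase, had 44.3 CPM in Control and 72.4 CPM in Null cells, a log2 ratio of 0.71 (0.56 to 0.86) in mesothelial cells. Elovl7, an elongase, had 9.60 CPM in Control and 2.62 CPM in Null cells, a log2 ratio of -1.87 (-2.40 to -1.38) in mesenchymal and 8.20 CPM in Control and 5.35 CPM in Null cells, a log2 ratio of -0.62 (-1.10 to -0.15) in mesothelial cells. Acss2, which makes acetyl-CoA from acetate, had 8.30 CPM in Control and 12.7 CPM in Null cells, a log2 ratio of 0.62 (0.35 to 0.89) in endocrine cells, and Mcat, of mitochondrial fatty acid synthesis, 15.0 CPM in Control and 9.93 CPM in Null cells, a log2 ratio of -0.59 (-1.18 to -0.02) in macrophages.

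Of 10 fatty acid oxidation genes, 2 were lower in mesothelial cells (23.7% of features), 3 in macrophages (30.3%) and 3 in mesenchymal cells (20.9%). In acinar cells 1 was lower (14.6%) and 1 higher (11.9%). Eci1 had 53.0 CPM in Control and 34.3 CPM in Null cells, a log2 ratio of -0.63 (-0.77 to -0.48) in mesenchymal cells, and Acadl, a dehydrogenase of this pathway, 87.7 CPM in Control and 58.2 CPM in Null cells, a log2 ratio of -0.59 (-0.83 to -0.36) in macrophages. Of 6 glycerolipid synthesis genes, 2 were lower in mesothelial, 2 in mesenchymal, 2 in macrophage and 0 in acinar cells, against the same shares of features. Lpin1, a phosphatidate phosphatase, had 6.22 CPM in Control and 4.07 CPM in Null cells, a log2 ratio of -0.61 (-1.06 to -0.18) in mesenchymal cells, and Gpat4, an acyltransferase, 29.5 CPM in Control and 19.6 CPM in Null cells, a log2 ratio of -0.59 (-1.0 to -0.19) in macrophages.

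In the GENCODE annotation of GRCm38, 7 of the 30 genes overlap another gene. The use of strand in counting is not given in the sources, so the values of these genes are uncertain to that extent. Hmgcs1 (chromosome 13, 119690379 to 119708260) overlaps the antisense gene Gm48342, Fdft1 overlaps Ctsb, Lss overlaps 4930483K19Rik, Cyp51 overlaps Akap9, Srebf1 overlaps Rai1 and Elovl6 overlaps Gm35986, all on the opposite strand. Tm7sf2 overlaps Vps51 on the same strand.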

How the data were processed

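Both samples were analysed from deposited matrices of raw UMI counts (whole numbers, 1 per feature and barcode). The submitters' processing notes list Cell Ranger 6.1.1, Seurat 3.2.3, bcl2fastq and the mm10 build. Use of strand in counting is not given in the sources. Barcodes with at least 1000 UMIs, at least 300 genes and under 15% mitochondrially encoded UMIs were kept. Scrublet doublets were removed per library in scanpy 1.11.5. Its automatic threshold marked 0 Control barcodes, so a score of 0.25 was used there and removed 209 (0.769%), while the automatic threshold removed 535 Null barcodes (5.69%). On barcodes of at least 5000 UMIs a second call marked 9.07% and 3.80%. Depth per library is given with the samples.

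Both libraries were clustered together on 2000 variable genes and 30 principal components with 15 neighbours and Leiden clustering (leidenalg 0.10.2) at resolution 1, and epithelial cells were clustered again. A cluster was named from listed markers, at least 3 of them above 1 on the log2 scale over the 25th percentile of clusters and in at least 10% of its cells, and stayed unnamed where its 10 leading genes held as many markers of another class. The thresholds for names were chosen with the data in view. For each class and library, UMIs were added up and divided by the class total, leaving out mitochondrially encoded and haemoglobin genes (CPM). Ratios carry exact conditional Poisson 95% intervals (scipy 1.17.1). They were checked only on simulated independent Poisson counts, which cannot show spread beyond counting error. Intervals on differences between summed ratios use a normal approximation. Genes with at least 20 UMIs over both libraries were compared, and classes with at least 200 cells in each library. Endothelial cells (185 in the Null library), glia and neurons were therefore given as levels only. Free RNA was estimated per class from acinar enzyme UMIs. No test between groups was possible with 1 library each.

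The members and gene lists were chosen with earlier results of these data known. Values are given for the 3 lowest and 3 highest ratios of each branch and class among genes with at least 50 UMIs and for the 4 regulators. Other pathway genes are named where past 1.5-fold with at least 100 UMIs and an interval excluding 0, except for some results that are not reported here. Further members, the macrophage comparison, the background of features of at least 5 CPM and the promoters of Msmo1, Mvd and Idi1 were added after values were seen. Alternatives covered scaling, depth, weighting of cells and clusters, sex, doublets, free RNA, class total, filter, clustering and fold.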

Additional observations from a re-analysis of the deposited data

Results flagged for a closer look

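Genes were singled out where Null was at least 25% above Control in 1 class and at least 20% below it in another, with intervals excluding 0 in both. With 1 library per group the difference between classes was not tested against replicate spread, and the values are the gaps between the highest and the lowest log2 ratio. Srebf1 had a gap of 0.84, from 0.43 in endocrine progenitors to -0.41 in mesenchymal cells. In male cells of both libraries its mesenchymal ratio was -0.23 (-0.61 to 0.15), short of the threshold, and its endocrine progenitor ratio 0.74 (0.22 to 1.28). In endocrine progenitors female over male Control cells had a ratio of 0.62. Scd1 had a gap of 2.40, from 0.47 in mesenchymal to -1.93 in ductal cells, where it had 23 and 5 UMIs. Scd2 had a gap of 1.248, between mesothelial cells (0.42) and endocrine cells (-0.83). In male cells these ratios of Scd2 were nearer 0, at 0.36 (0.26 to 0.46) and -0.42 (-0.56 to -0.27), both past the threshold. Acly had a gap of 0.94, between endocrine cells (0.39) and mesothelial cells (-0.55). In male cells the endocrine ratio of Acly was 0.26 (0.18 to 0.34), short of the threshold. Elovl6 had a gap of 1.92, between macrophages (0.64) and endocrine progenitors (-1.28). In male cells its macrophage ratio was 0.82 (0.19 to 1.51). Its endocrine progenitor ratio there was -0.861 (-1.745 to -0.001), with 29 Control and 21 Null UMIs.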

How the results depend on the processing

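Counts below are genes of a branch lower in Null past the threshold of 20%. The shares of all features given above belong to the processing described there and were not counted under the alternatives. Under the alternatives at that threshold, the cholesterol count stayed between 15 and 18 in mesothelial, 9 and 13 in acinar and 8 and 11 in macrophage cells. Where a count moved by over 1.5 times, the cause was not tested. At 1.5-fold the cholesterol counts were 1 in acinar, 2 in mesenchymal, 0 in ductal and 0 in endocrine progenitor cells, and the fatty acid counts 2 in acinar, 0 in mesothelial and 1 in macrophage cells. With free RNA subtracted, cholesterol counts were 11 in mesenchymal and 6 in endocrine cells and the fatty acid count 1 in mesenchymal cells. In male cells, cholesterol counts were 3 in ductal and 5 in endocrine progenitor cells and fatty acid counts 0 in ductal, where Scd1 had 19 UMIs and fell under the minimum of 20, and 2 in endocrine cells. With clusters weighted alike, cholesterol counts were 0 in ductal and 1 in endocrine progenitor cells and the fatty acid count 2 in acinar cells, and in endocrine cells Insig1 (0.23) and Stard4 (0.084) turned above 0. With ratios centred on all features, ductal cells had a cholesterol count of 2 and macrophages a fatty acid count of 1. Without barcodes of the second doublet call, endocrine and endocrine progenitor cells had cholesterol counts of 1 each and macrophages a fatty acid count of 1. For endocrine progenitors the cholesterol count was 0 as a mean over cells and 1 with 50 principal components. No paired analysis was possible because each group is 1 library, and no library could be left out. Low UMI counts limit macrophages most, whose intervals are the widest.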
